A study of Homo sapiens with 18 samples.

Results

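The 6 developmental and signalling genes counted among the targets of the fusion protein PAX3-FOXO1 were examined here for the form of RNA polymerase II (Pol II) that carries a phosphate on serine 5. They are TFAP2B, POU4F1, OLIG2, NHLH1, JARID2 and CNR1. Their members in the deposited table were taken by position alone, as every measured region that overlapped a window of the hg19 genome set around each gene. Of the 12123 regions in the table, 3 lay in these windows, 1 each for TFAP2B, POU4F1 and CNR1. OLIG2, NHLH1 and JARID2 had no region in their windows. Absence from the table says only that no region is listed there, and the sources used here do not give the way regions were called.

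Phosphorylation of serine 5 in the C-terminal domain of Pol II accompanies the start of transcription, so chromatin immunoprecipitation with this mark is strongest near start sites, where the polymerase often pauses. PAX3-FOXO1 joins the DNA-binding part of PAX3 to the activation domain of FOXO1 and drives alveolar rhabdomyosarcoma, a childhood tumour with features of skeletal muscle. TFAP2B encodes the transcription factor AP-2 beta, which acts in neural crest and kidney and serves in pathology as a marker of fusion-positive tumours. POU4F1 encodes BRN3A, a POU homeodomain factor of sensory neurons. OLIG2 and NHLH1 encode basic helix-loop-helix factors of the oligodendrocyte and motor neuron lineages and of developing neurons. JARID2 encodes an accessory subunit of Polycomb repressive complex 2, which silences developmental genes. CNR1 encodes the cannabinoid receptor CB1, a G protein-coupled receptor of neurons.

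The cells were Rh30, an established alveolar rhabdomyosarcoma line, and in all groups the fusion carried an FKBP tag through which the small molecule dTAG47 sends it to degradation. The groups were DMSO, 2 h of 500 nM dTAG47 and 4 h of 500 nM dTAG47, with 2 libraries each, called A and B. The labels do not say whether these libraries came from separate cultures or whether the tagged line is a single clone. Each p-value therefore reflects how far these libraries differ, mostly as pooled over all regions, and that spread can be purely technical. Total counts over all regions ranged from 962251 in 4 h library B to 1792013 in DMSO library A. The table pairs no region with a gene name, so muscle markers of the line were not checked here.

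The promoters of the 3 genes with a region are shown because their Ser5 signal is the subject of the results. They are the 250 bases before the start site, 5′ to 3′, from RefSeq on GRCh38.p14. Capitals mark every match to the motifs searched on both strands, which were the TATA box (TATAAA), the GC box (GGGCGG), the E-box of myogenic factors (CAGCTG), the core bound by paired domains (GTCACG) and the homeodomain pair, in which TAAT is followed by its reverse complement after 2 or 3 bases. The regions are in hg19 and the promoters in GRCh38.p14, so whether a region covers the printed bases was not determined. RefSeq lists 6 start sites for CNR1, of which the most upstream is shown.
TFAP2B, chr6:50818621-50818870, plus strand: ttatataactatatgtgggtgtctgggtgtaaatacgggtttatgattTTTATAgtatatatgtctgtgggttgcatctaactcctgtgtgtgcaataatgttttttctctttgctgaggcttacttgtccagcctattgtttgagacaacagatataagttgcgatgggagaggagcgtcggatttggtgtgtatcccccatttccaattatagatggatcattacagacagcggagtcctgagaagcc
POU4F1, chr13:78603553-78603802, minus strand: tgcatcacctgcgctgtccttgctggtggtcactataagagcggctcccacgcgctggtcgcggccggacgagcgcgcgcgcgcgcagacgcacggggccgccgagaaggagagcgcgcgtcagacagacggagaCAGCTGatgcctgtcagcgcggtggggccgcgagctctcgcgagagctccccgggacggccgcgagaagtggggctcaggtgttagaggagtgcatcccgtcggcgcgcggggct
CNR1, chr6:88167350-88167599, minus strand: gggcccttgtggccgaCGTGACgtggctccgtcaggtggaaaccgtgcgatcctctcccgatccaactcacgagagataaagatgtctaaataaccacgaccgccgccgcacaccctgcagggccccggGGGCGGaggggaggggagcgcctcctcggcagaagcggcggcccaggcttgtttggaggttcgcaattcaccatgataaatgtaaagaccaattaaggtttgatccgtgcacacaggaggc

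The 3 promoters shown had little in common in these letters. The TFAP2B promoter held 40.8% G and C and 5 CpG dinucleotides, and its match was TTTATA, the TATA box motif on the other strand, 202 to 197 bases before the start. The POU4F1 promoter held 71.2% G and C and 37 CpG dinucleotides, more than 96.0% of the 35116 promoters in the table, and a CAGCTG E-box 115 to 110 bases before the start. The CNR1 promoter shown held 60.4% G and C and 20 CpG dinucleotides, a GGGCGG box 121 to 116 bases before the start and CGTGAC, the paired domain core on the other strand, 234 to 229 bases before it. The other listed promoters of CNR1 ran from 30.8% to 74.8% G and C and from 0 to 29 CpG dinucleotides. The median promoter held 58.0% G and C and 11 CpG dinucleotides. Among all promoters, 10.7% held the TATA box motif, 42.6% the GC box, 14.0% the E-box and 7.93% the paired domain core, in either direction. The homeodomain pair was in 0.399% of all promoters with a gap of 2 bases, in 0.33% with a gap of 3, and in none of the 11 listed promoters of TFAP2B, POU4F1, NHLH1, JARID2 and CNR1. OLIG2 was not in the promoter table. A match is a description of letters and not of binding.

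Inside the windows, each region lay towards the 5′ side of its gene, by the strand that RefSeq gives. The TFAP2B region, chr6:50787596-50787996, began 2.2 kb from the 5′ edge of a 31.0 kb window. The POU4F1 region, chr13:79177385-79177785, lay 0.9 kb from the 5′ edge of a 6.5 kb window. The CNR1 region, chr6:88875518-88875918, lay 0.9 kb from the 5′ edge of a 28.3 kb window. The window edges are not annotated start sites, and an hg19 annotation of exons was not used here.

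All regions of the table have the same length, so their levels can be set side by side as TMM-scaled CPM, the read count brought to a common library total. POU4F1 had the highest level of the 3, with a mean over the 6 libraries of 65.9 CPM, against 64.2 CPM for the median region of the table. TFAP2B averaged 38.0 CPM and CNR1 29.5 CPM, above 17.6% and 9.43% of all regions. In DMSO the POU4F1 region stood above 72.4% of regions, at 2 h above 47.5% and at 4 h above 29.1%. The matching places of TFAP2B were 29.1%, 13.6% and 13.9%, and those of CNR1 18.9%, 5.07% and 8.08%.

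Of the 3 genes, POU4F1 passed the test, with a Ser5 signal that fell after 4 h of dTAG47. Under DMSO its region held 147 reads in library A and 143 in library B, after 2 h of dTAG47 93 and 78, and after 4 h 80 and 41. Scaled, these were 79.4 and 97.9 CPM under DMSO, 64.9 and 59.3 CPM after 2 h and 50.4 and 43.7 CPM after 4 h. Both libraries of each later time lay below both libraries of the time before it, and the groups did not overlap. At 4 h the signal averaged 47.0 ± 4.76 CPM, against 88.6 ± 13.1 CPM in DMSO (SD, n = 2 each), a change of -45.6% with a 95% confidence interval of -57.2% to -30.9%. The log2 fold change was -0.88 (SE 0.17, edgeR adjusted p = 0.00133, from the quasi-likelihood test with Benjamini-Hochberg adjustment over 12123 regions). Only 28 regions of the table, or 0.231%, had a lower fold change at 4 h.

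At 2 h the POU4F1 region averaged 62.1 ± 3.99 CPM, against the 88.6 CPM of DMSO (-0.50 on the log2 scale, SE 0.16, edgeR unadjusted p = 0.00307, adjusted p = 0.0814), and it did not pass the threshold of 0.05. Its 95% confidence interval ran from -43.3% to -11.6%. With a replicate block by column letter the value at 2 h was past the threshold (-0.50, edgeR adjusted p = 0.0198). The block moved its SE from 0.16 to 0.15. Over all regions, it raised those called lower at 2 h from 48 to 230. Without DMSO library A it also passed (-0.65, edgeR adjusted p = 0.047), and without DMSO library B it was -0.34 (adjusted p = 0.396). The 2 DMSO libraries were further apart at this gene than the libraries of the treated groups, with library B the higher.

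**Figure D1:**
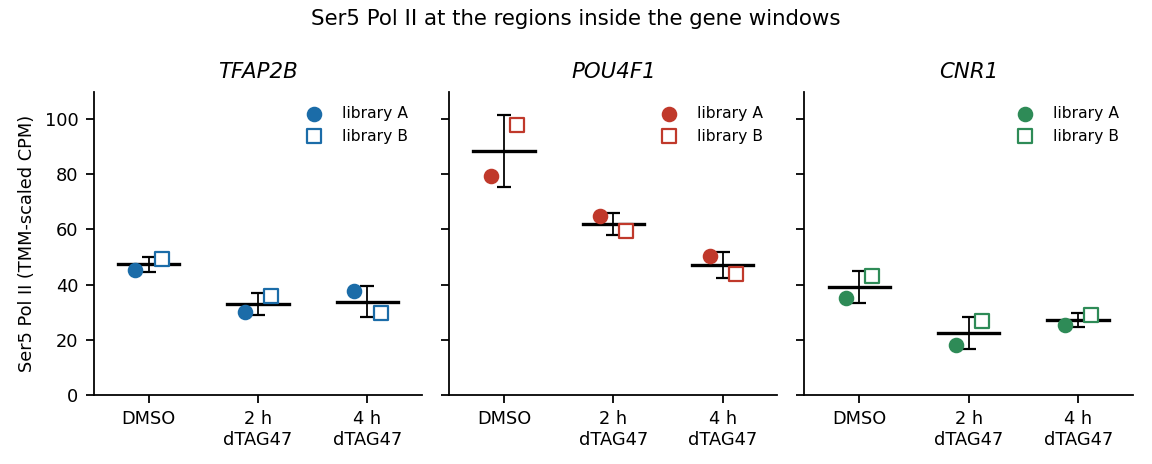
Ser5 Pol II in TMM-scaled CPM at the regions of TFAP2B, POU4F1 and CNR1. Filled circles are libraries A, open squares libraries B, and bars are the group mean ± SD (n = 2). In POU4F1 the mean was 88.6 CPM in DMSO, 62.1 CPM at 2 h and 47.0 CPM at 4 h, while in TFAP2B and CNR1 the 2 h and 4 h libraries overlapped.

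The CNR1 region had the lowest counts of the 3, with 65 and 63 reads under DMSO (library A, then B), 26 and 35 reads after 2 h and 40 and 27 reads after 4 h. In CPM, DMSO stood at 35.1 and 43.1, the 2 h libraries at 18.2 and 26.6 and the 4 h libraries at 25.2 and 28.8. All 4 treated libraries lay below both DMSO libraries, and the 2 h and 4 h libraries overlapped. The mean at 2 h was 22.4 ± 5.98 CPM, against 39.1 ± 5.67 CPM in DMSO (SD, n = 2 each). The log2 fold change of -0.80 (SE 0.26, 95% confidence interval -1.32 to -0.28) had an unadjusted p of 0.00346 and an edgeR adjusted p of 0.0877, above the threshold. With a replicate block by column letter, which raised the calls over all regions, it was past the threshold (-0.81, edgeR adjusted p = 0.00906). Only 30 regions of the table, or 0.247%, had a lower fold change at 2 h. At 4 h the mean was 27.0 ± 2.52 CPM, with a log2 fold change of -0.54 (SE 0.26, 95% confidence interval -1.06 to -0.03, edgeR adjusted p = 0.343).

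Counting error alone was large at CNR1. For 26 reads it is 19.6% of the count (the square root of the count over the count), and for the 147 reads of POU4F1 in DMSO library A 8.25%. The size at 2 h also moved with single libraries, from -0.54 without 2 h library A to -1.09 without 2 h library B, where the edgeR adjusted p was 0.601 and 0.0953.

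The TFAP2B region held 84 and 72 reads under DMSO, in the same order of libraries, 43 and 47 reads after 2 h and 60 and 28 reads after 4 h. This came to 45.4 and 49.3 CPM under DMSO, 30.0 and 35.7 CPM after 2 h and 37.8 and 29.8 CPM after 4 h. All 4 treated libraries lay below both DMSO libraries. The mean at 2 h was 32.9 ± 4.03 CPM, against 47.3 ± 2.77 CPM in DMSO (SD, n = 2 each), and the log2 fold change of -0.52 (SE 0.22, 95% confidence interval -0.96 to -0.09) had an edgeR adjusted p of 0.223. At 4 h the mean was 33.8 ± 5.64 CPM and the log2 fold change -0.44 (SE 0.22, 95% confidence interval -0.88 to -0.01, edgeR adjusted p = 0.368). TFAP2B did not pass the threshold at either time, and its value at 4 h was -0.31 without 4 h library B and -0.66 without 4 h library A.

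Counted over the 3 regions, 0 were called at 2 h against DMSO, where 0.396% of all 12123 regions were called lower and 2.22% higher. By edgeR, 3 of 3 were below DMSO at 2 h with an unadjusted p under 0.05, against 5.44% of all regions. By DESeq2 it was 2 of 3, and the share of all regions was not counted for that test. At 4 h against DMSO, 1 of 3 was called, POU4F1, where 0.487% of all regions were called lower and 1.52% higher. An unadjusted p under 0.05 was reached by 3 of 3 in edgeR, against 5.09% of all regions on the lower side. In DESeq2 it was 1 of 3, POU4F1, again with no share of all regions counted. A replicate block by column letter called 2 of 3 at 2 h, POU4F1 and CNR1, with 230 of all regions called lower against 48 without it, and called POU4F1 alone of the 3 at 4 h, with 203 against 59. The background also moved with single libraries. At 2 h, 15 regions were called lower without 2 h library A, 20 without 2 h library B, 87 without 4 h library A and 80 without 4 h library B, and at 4 h 27 without 4 h library B. Both treated libraries lay below both DMSO libraries at 3 of 3 regions at each time, against 21.8% of all regions at 2 h and 20.6% at 4 h. How many of all regions had this order at both times together, or fell from each time to the next, was not counted. The median log2 fold change of the 3 was -0.52 at 2 h and -0.54 at 4 h, against -0.01 over all regions at each time. These shares and medians are over regions of all levels, whereas TFAP2B and CNR1 stood above only 17.6% and 9.43% of regions. Regions of a like level were not compared, so whether the difference goes with low level was not tested. Both times share the same DMSO libraries, so the values at 2 h and 4 h are not independent of each other. The genes were also chosen with earlier results of these data known.

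**Figure D2:**
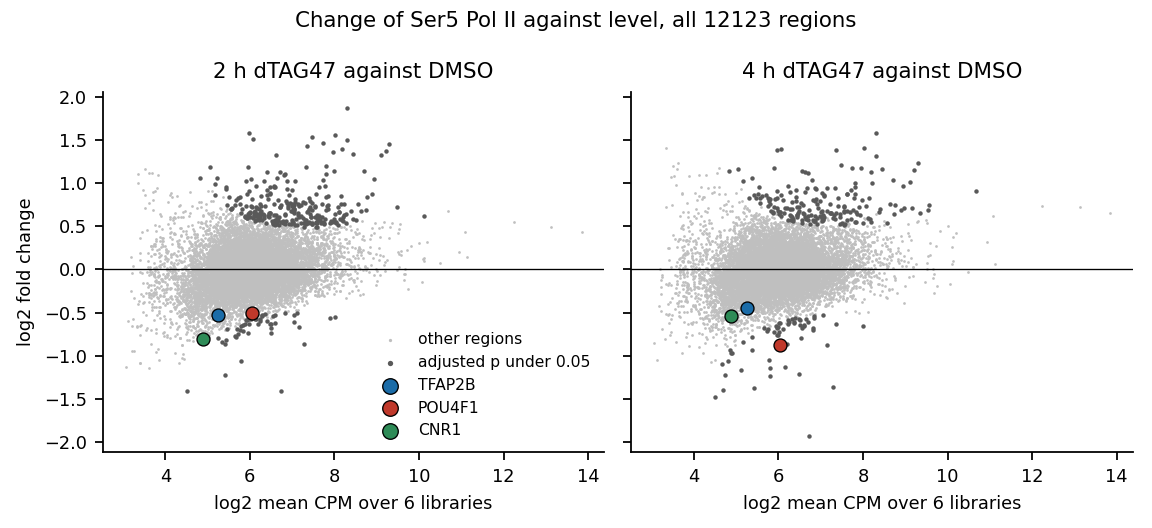
Log2 fold change against DMSO at 2 h (left) and 4 h (right) for every region, against the log2 of its mean CPM over the 6 libraries. Grey points are regions, darker ones those with an edgeR adjusted p under 0.05, and coloured points are TFAP2B, POU4F1 and CNR1, of which only POU4F1 at 4 h (-0.88) was called.

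A direct comparison asked whether the signal differed between 4 h and 2 h. None of the 3 regions was called, and 0.0% of all regions were called in either direction (edgeR, lowest adjusted p of the 3 genes 0.998). An unadjusted p under 0.05 was reached by 1 of 3 in edgeR, on the lower side, where 2.07% of all regions reached it. In DESeq2 none of the 3 reached it, and the share of all regions was not counted. Both 4 h libraries lay below both 2 h libraries at 1 of 3, POU4F1, against 16.4% of all regions. At POU4F1 the mean was 47.0 CPM at 4 h and 62.1 CPM at 2 h, a log2 fold change of -0.38 (SE 0.19, unadjusted p = 0.0476, edgeR adjusted p = 0.998), with a 95% confidence interval from -40.8% to -0.29%. At CNR1 the mean was 27.0 CPM at 4 h and 22.4 CPM at 2 h (0.26, SE 0.29, 95% confidence interval -0.33 to 0.85), and this value was 0.00 without 2 h library A and 0.55 without 2 h library B. At TFAP2B it was 33.8 CPM at 4 h and 32.9 CPM at 2 h (0.08, SE 0.24, 95% confidence interval -0.40 to 0.56). These intervals are too wide to show that the times were alike.

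The genes with no region in their windows had measured regions near them, named here by position only. The region nearest to NHLH1, chr1:160345148-160345548, began 1.4 kb above the window. Under DMSO it held 60 and 58 reads (32.4 and 39.7 CPM), after 2 h 36 and 35 reads (25.1 and 26.6 CPM) and after 4 h 22 and 26 reads (13.9 and 27.7 CPM). Its treated libraries all lay below both DMSO libraries. At 4 h it averaged 20.8 ± 9.78 CPM, against 36.0 ± 5.16 CPM in DMSO (-0.89 on the log2 scale, SE 0.29, unadjusted p = 0.00368, edgeR adjusted p = 0.109), and at 2 h the log2 fold change was -0.47 (adjusted p = 0.441). This region was therefore not called, although its fold change at 4 h was about that of POU4F1. The region 22.4 kb below NHLH1 had log2 fold changes of -0.11 at 2 h and -0.17 at 4 h.

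The region nearest to JARID2, chr6:15245066-15245466, ended 34 bases below the window and so is no part of it. It averaged 30.5 ± 2.29 CPM at 2 h, against 35.1 ± 2.25 CPM in DMSO (log2 fold change -0.21, 95% confidence interval -0.69 to 0.28, edgeR adjusted p = 0.772). At 4 h the average was 36.0 ± 10.8 CPM (-0.03, 95% confidence interval -0.52 to 0.45, adjusted p = 0.979). The 4 h libraries A and B stood at 28.4 and 43.7 CPM, on either side of the DMSO libraries at 36.7 and 33.5 CPM. On the other side, the nearest region lay 139.4 kb above the window, with log2 fold changes of -0.10 and 0.00 at 2 h and 4 h.

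OLIG2 had no region within 100 kb, and its nearest regions lay 253.0 kb below and 199.7 kb above the window. They averaged 85.5 and 89.0 CPM in DMSO, 84.6 and 84.4 CPM at 2 h, and 85.5 and 86.9 CPM at 4 h, with log2 fold changes between -0.08 and 0.01. TFAP2B likewise had no other region within 100 kb. The nearest lay 1184.6 kb above its window and was called higher at 2 h (0.93 on the log2 scale, edgeR adjusted p = 3.45e-05) and at 4 h (0.80, adjusted p = 0.000941). The nearest on the other side lay 1354.3 kb below, with log2 fold changes of 0.37 at 2 h and 0.07 at 4 h, and was not called.

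POU4F1 and CNR1 each had 2 regions within 100 kb of their windows. The region 1.8 kb below the POU4F1 window, chr13:79170044-79170444, averaged 24.2 ± 4.54 CPM at 2 h, against 38.3 ± 2.97 CPM in DMSO (-0.66 on the log2 scale, SE 0.25, edgeR adjusted p = 0.180), and 29.0 ± 7.18 CPM at 4 h (-0.44, adjusted p = 0.474). The region 54.1 kb above the window had log2 fold changes of -0.24 and -0.03. The regions 70.5 kb and 90.7 kb below the CNR1 window had -0.52 and -0.61 at 2 h and -0.21 and -0.36 at 4 h (lowest adjusted p of these 4 values 0.266). Over the 7 regions within 100 kb of any window, 0 were called at either time, against 2.61% of all regions at 2 h and 2.0% at 4 h. Their median log2 fold change was -0.47 at 2 h and -0.21 at 4 h, against -0.01 over all regions at each time. All 7 values were below 0 at both times, and the share of all regions below 0 was not counted. In each library all 7 stood below 64.2 CPM, the level of the median region, and regions of a like level were not compared.

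**Figure D3:**
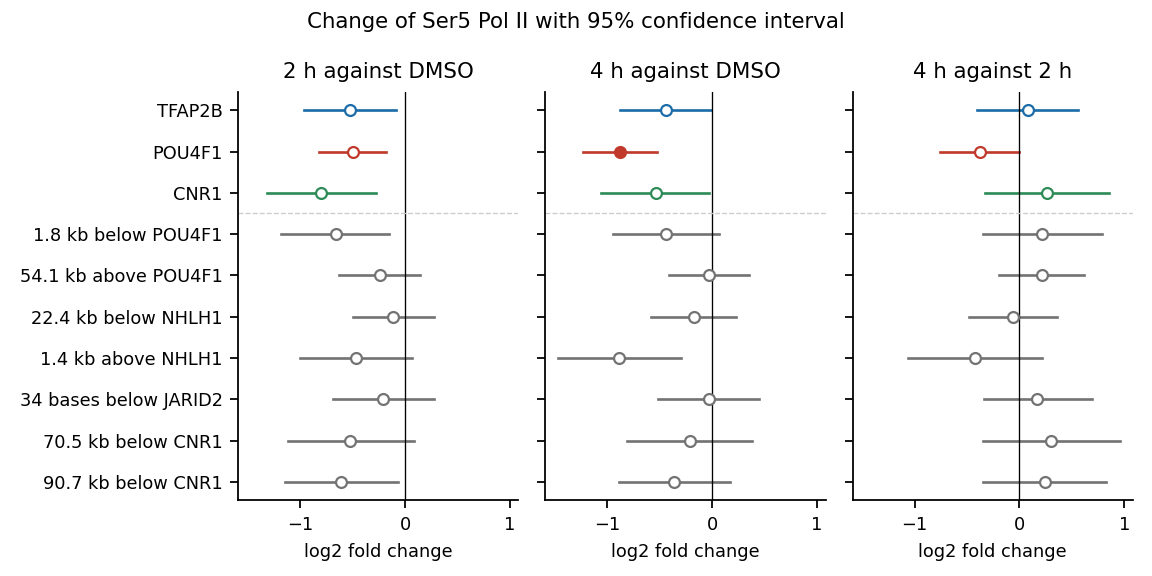
Log2 fold changes with 95% confidence intervals for the regions of TFAP2B, POU4F1 and CNR1 (coloured) and for the 7 regions within 100 kb of a window (grey, named by their distance from it). The panels show 2 h against DMSO, 4 h against DMSO and 4 h against 2 h, and the filled point, POU4F1 at 4 h against DMSO, is the value with an edgeR adjusted p under 0.05.

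Outside the windows, the region most like each gene over the 6 libraries was found by Pearson's correlation of log2 CPM among the 6061 regions with at least the median level. For POU4F1 it was chr7:75795833-75796233 (r = 0.991 over 6 libraries), with log2 fold changes of -0.27 at 2 h and -0.41 at 4 h. For TFAP2B it was chr5:112257401-112257801 (r = 0.987), with -0.34 and -0.28, and for CNR1 chr1:153918806-153919206 (r = 0.992), with -0.20 and -0.15. Likeness here is of shape and not of size, and 22, 34 and 12 regions had an r over 0.95 with POU4F1, TFAP2B and CNR1. With so few libraries and so many regions, such values are a description only.

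The 3 regions with the most reads took 1.77% and 2.61% of all counts under DMSO (library A, then B), 2.61% and 3.21% after 2 h and 2.61% and 4.17% after 4 h. The share was higher in library B than in library A of each group, and the groups overlapped, since DMSO library B stood level with library A of both treated groups. With this share as a covariate, chosen after the data had been seen, POU4F1 at 4 h was at -0.91 (edgeR adjusted p = 0.00265), CNR1 at 2 h at -0.99 (adjusted p = 0.0102) and TFAP2B at 2 h at -0.49 (adjusted p = 0.273). The covariate also raised the calls over all regions, with 135 called lower at 2 h, against 48 without it, and 109 at 4 h, against 59. The direction of the 3 genes at 2 h and 4 h was below DMSO under all scalings tried. POU4F1 at 4 h was called by edgeR or limma under each other scaling, filter and fit that kept every library of the groups compared. Among these, summing a gene's regions and omitting the filter only repeat the reported fit. DESeq2 gave it no adjusted p (unadjusted p = 0.000914). Over all alternatives, with each library left out in turn, the log2 fold change of POU4F1 at 4 h ran from -1.03 to -0.72.

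**Figure D4:**
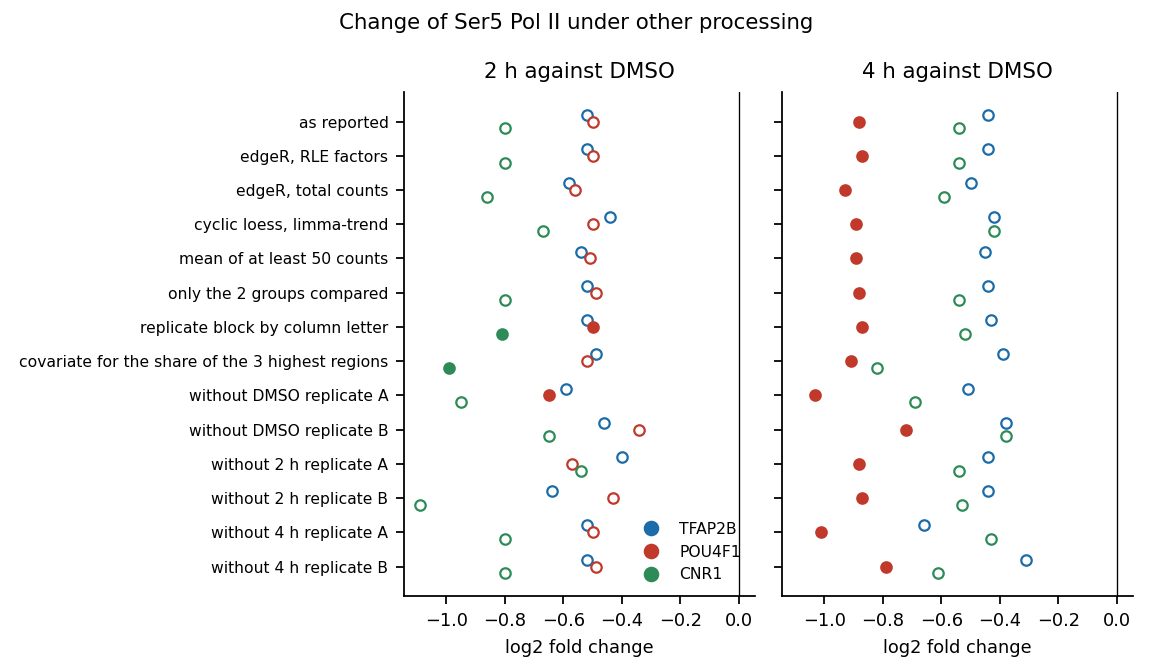
Log2 fold changes against DMSO of TFAP2B, POU4F1 and CNR1 as reported and under other scalings, tests and fits and with each library left out. DESeq2, which gave these values no adjusted p, is not shown. Filled points have an adjusted p under 0.05, which POU4F1 has at 4 h in all settings shown and at 2 h in 2 of them, and CNR1 at 2 h in 2.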

How the data were processed

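Ser5 Pol II was measured by ChIP-seq in 6 libraries of Rh30 cells. The authors deposited raw read counts, whole numbers from 3 to 22091, for regions whose end lies 400 above the start. Per the submitters' processing notes, the tools were DESeq2, DiffBind, MACS2, Bowtie2 and Trimmomatic 0.32, with the builds hg19 and dm3. The sources used here do not give how regions were called and counted, or any spike-in scaling. A uniform shift of the whole table would go unnoticed. Positions are printed as deposited, and no source says whether they count from 0 or 1.

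The columns name a treatment and a letter, which was not tied to the numbered labels. Libraries of the same letter deviated together across regions: the A minus B differences of log2 CPM correlated with r = 0.219 between 2 h and DMSO, 0.279 between 4 h and DMSO and 0.158 between 4 h and 2 h. Library A was also the deeper one of each group. A block by letter is given beside the results whose call it changes. The libraries of a group differed by more than sampling noise (chi-square over its degrees of freedom: DMSO 2.33, 2 h 1.50, 4 h 2.26).

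All regions were tested with edgeR 4.0.16 in R 4.3.3 (quasi-likelihood test, TMM, filterByExpr, which removed 0 regions, all 6 libraries in 1 fit, Benjamini-Hochberg adjustment, threshold 0.05). The standard error is the log2 fold change over the square root of F, and intervals use the fit's t distribution. The fit draws the spread of each region towards that of all regions, with 43.6 prior degrees of freedom. The p-values and intervals therefore rest mostly on this pooled spread and less on the libraries at the named region. Alternatives used DESeq2 1.42.0 and limma 3.58.1, other scalings and filters, and left out each library. Named were all regions in the windows, the nearest ones within 100 kb, or at any distance for TFAP2B and for genes without a region, and the most alike region. The members and lists were chosen with earlier results of these data known. Planned counts over related genes and cell markers were not run, since an hg19 annotation was not used here. The 12 libraries of the other antibodies were not analysed here.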

Additional observations from a re-analysis of the deposited data

How the results depend on the processing

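The count of 0 of 3 genes called at 2 h was 2 with a replicate block by column letter, 1 with the share of the 3 highest regions as a covariate, and between 0 and 1 when libraries were left out, with 1 only without DMSO library A. The block called POU4F1 (-0.50, adjusted p = 0.0198) and CNR1 (-0.81, adjusted p = 0.00906) at 2 h and left POU4F1 as the call at 4 h. It changed no other call of the 3 genes. The letters are not tied to the label numbers, so the block rests on a shared letter only. Over all regions the block called 230 lower and 629 higher at 2 h, against 48 and 269 without it, and 203 and 540 at 4 h, against 59 and 184. The covariate called 135 lower and 364 higher at 2 h, and 109 and 191 at 4 h. Single libraries moved the higher calls at 2 h to 153 without DMSO library A, 140 without 2 h library A and 127 without 2 h library B, and at 4 h to 89 without DMSO library A, 314 without DMSO library B and 93 without 4 h library B. The counts at 4 h against DMSO (1) and 4 h against 2 h (0) did not change under any alternative that gave one. TFAP2B in 4 h against 2 h ranged from -0.14 to 0.21 when libraries were left out, changing sign to -0.04 without 2 h library A and -0.14 without 4 h library A, and the cause was not tested. DESeq2 gave no adjusted p for the 3 genes against DMSO (log2 fold changes at 2 h -0.53, -0.51 and -0.81 for TFAP2B, POU4F1 and CNR1, and at 4 h -0.46, -0.89 and -0.54, the POU4F1 value at 4 h with an unadjusted p of 0.000914). It gave an adjusted p to 4367 regions at 2 h and 5777 at 4 h, and called 3 and 5 of them lower. The call of POU4F1 at 4 h therefore rests on edgeR and limma. The DESeq2 standard error of that value was 0.27, against 0.17 in edgeR. Whether DESeq2 would call POU4F1 with an adjusted p was not determined. A minimum mean of 50 counts removed CNR1. Each gene has 1 region, so adding regions up changed nothing, and neither did omitting a filter that removes 0 regions. Windows widened by 2 kb took in 3 more regions, beside POU4F1, NHLH1 and JARID2, none of them called. With total count scaling in place of TMM, 65.6% of the calls over all regions at 2 h were higher, against 84.9%, and 59.1% at 4 h, against 75.7%, with the same calls at the 3 genes.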
